A study of Homo sapiens with 9 samples.

Results

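The genes for the protein parts of the mitochondrial ribosome were followed through knockdown of either of a pair of NF-kB family members, NFKB2 and RELB, in a human bone tumour cell line. Members were all entries whose symbol is MRPL or MRPS followed by a number and at most one letter A, B or C, present in each of the 9 count tables. The rule uses names only and found 78 of 44608 entries, 49 with an MRPL symbol (large subunit) and 29 with an MRPS symbol (small subunit). Of these, 74 passed the filter on low counts and were tested, 47 of the large and 27 of the small subunit.

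Oligo-dT selected RNA from U2OS, an established osteosarcoma cell line, was sequenced in 9 libraries. Cells in the first group had received a non-silencing siRNA (siNS, 3 libraries), in the second an siRNA against NFKB2 (siNFKB2, 3 libraries) and in the third an siRNA against RELB (siRELB, 3 libraries). Every group shared the lipid transfection, the total siRNA dose of 75 nM and the harvest after 48 h, and no group was left untransfected. The labels give replicate numbers but not whether each came from its own culture. A p-value therefore reflects only how much these libraries vary, and the number of siRNAs per target is not stated either.

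Human mitochondria keep their own ribosome, which translates the few proteins encoded by mitochondrial DNA, all of them parts of the respiratory chain complexes or of ATP synthase. Its rRNAs come from the mitochondrial genome, whereas every ribosomal protein is encoded in the nucleus, made in the cytosol and imported. Some of these proteins descend from bacterial ribosomal proteins, and others were added in the mitochondrial lineage. NFKB2 and RELB form the p52/RelB dimer of the non-canonical NF-kB pathway.

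Total counts ran from 15011789 to 19279572 per library, and the members took 0.562% to 0.751% of them. NFKB2 averaged 108 CPM (counts scaled to a common library size with TMM factors) in siNS and 25.5 CPM in siNFKB2, with an adjusted p of 0.021 that rose to at most 0.0936 over the alternative settings (called in 15 of 19). RELB averaged 27.2 CPM in siNS and 4.23 CPM in siRELB, with an adjusted p of 0.00881 (called in 17 of 19, at most 0.0591). The NFKB2 level in siNFKB2 spread from 5.26 to 48.4 CPM, so the remaining target differed between these libraries. VIM lay at 2140 to 3220 CPM and COL1A1 at 518 to 1074 CPM in all 9 libraries, while the bone markers COL1A2 (at most 1.15 CPM) and SP7 (0 counts in 7 of 9 libraries) were near absent. RUNX2 (at most 13.9 CPM), ALPL (3.73 to 26.8 CPM) and SPP1 (7.68 to 32.5 CPM), also bone markers, were detected in every library. The mesenchymal and bone list summed to 3335 to 4320 CPM in siNS, 2855 to 3095 CPM in siNFKB2, below every siNS library, and 3017 to 3586 CPM in siRELB, and its part in the results was not tested. Epithelial markers summed to between 9.50 and 17.1 CPM and blood markers to between 2.15 and 7.33 CPM, with CD3E at 0 throughout. In such bulk RNA, fewer cells of a type and less RNA per cell cannot be told apart.

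The RefSeq promoter table (GRCh38.p14, 250 bases before to 50 after each gene's start) held 69 of the 78 members. It was searched on both strands for 5 motifs, and the windows below are shown because each belongs to a member that was called, or because it holds the consensus bound by NF-kB. All are written 5′ to 3′ on the gene's strand, with the matched motif in capitals.

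MRPL30, NF-kB consensus, chr2:99181078-99181107, plus strand: tctctttctaGGGACTTTCCtgagtgggag
MRPL14, NF-kB consensus, chr6:44127349-44127378, minus strand: ggcccgcggcGGGATTTTCCcgggcggcga
MRPL30, NRF1 motif read on the other strand, chr2:99181058-99181087, plus strand: tgatacccagGCGCCTGCGCtctctttcta
MRPL22, NF-kB consensus read on the other strand, chr5:154941010-154941039, plus strand: actgcttgtgGGAGAGCCCCacaggaaatc
MRPL50, YY1 motif, chr9:101398576-101398605, minus strand: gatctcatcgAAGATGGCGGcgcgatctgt
MRPL20, ETS motif, chr1:1407319-1407348, minus strand: cgaccttcgccCCGGAAGTatcgcaggggc
MRPS22, ETS motif read on the other strand, chr3:139343903-139343932, plus strand: gggcccggaagACTTCCGGccctttccgcc
MRPL47, ETS motif, chr3:179604659-179604688, minus strand: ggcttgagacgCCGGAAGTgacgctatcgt

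The YY1 motif, whose letters are the capitals in the MRPL50 window, was the motif held by most members, in 13 of the 69 promoters (18.8%) against 1.2% of all 35116 promoters of that table. In 10 of these 13 it began after the gene's start and on the gene's strand, as in MRPL50, and the same held for 59.5% of the 422 promoters with this motif over the whole table. The ETS motif CCGGAAGT, read by the GABP factor among others, was in 11 members (15.9%) against 4.14% of all promoters. The NRF1 motif, which has 1 free base inside the letters shown for MRPL30, was in 8 (11.6% against 5.78%) and the E-box CACGTG, read by MYC among others, in 6 (8.7% against 7.26%). The NF-kB consensus was in 3 members (4.35%), the ones shown, against 5.91% of all promoters. These shares are descriptions. A match is not a bound site, and the absence of a match says only that these letters are not in this window. Members were counted by 1 entry each on the main chromosomes, while all promoters means every full-length entry with no such limit.

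In control cells the members differed widely in level. Levels are compared between genes per kilobase of exon, from the joined exons of all transcripts in GENCODE 29 (GRCh38), an annotation that may not be the one the authors counted with. Among large subunit members the median siNS level was 35.7 CPM per kb, with MRPL51 (175), MRPL15 (135) and MRPL12 (115) highest. MRPL42 (4.63), MRPL46 (7.63) and MRPL50 (11.2) were lowest. Among small subunit members the median was 22.8 CPM per kb. The highest were MRPS34 (117), MRPS16 (112) and MRPS35 (60.4), and the lowest were MRPS24 (1.68), MRPS36 (2.01) and MRPS18C (6.65). Neighbours in this order mostly differed by less than their spread over the 3 siNS libraries, as the plot of levels per exon length shows. Long joined exons lower the value per kb, so the order depends on the annotation.

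**Figure D1:**
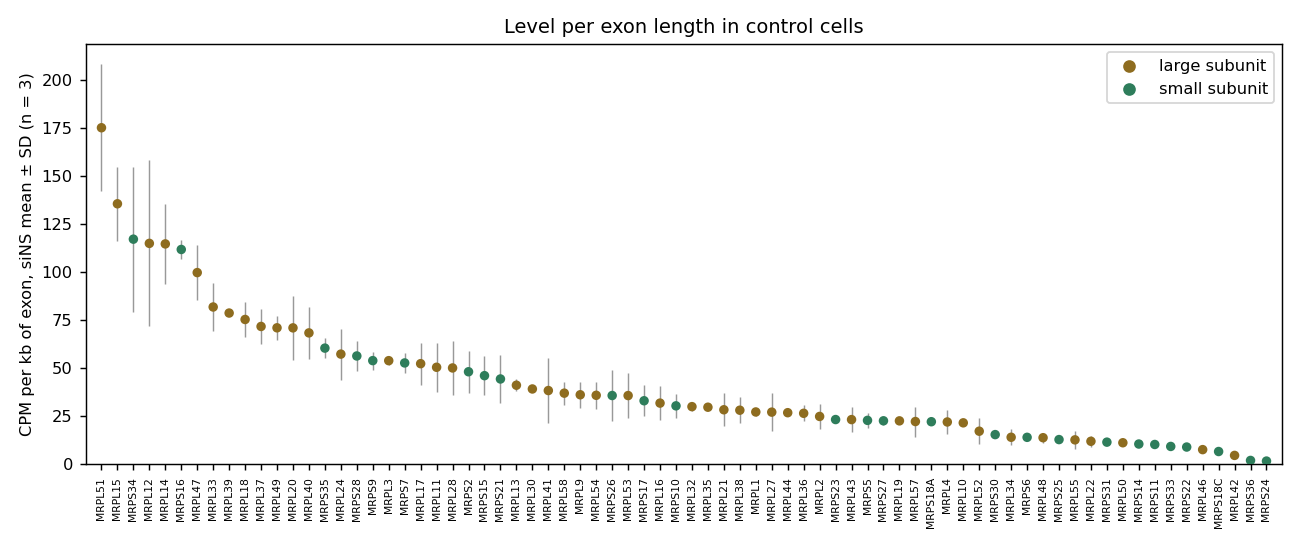
Level of the 74 tested members in siNS in CPM per kilobase of exon (vertical axis, mean with SD over 3 libraries), ordered from the highest to the lowest. Large subunit genes are brown and small subunit genes green. Levels run from 175 CPM per kb for MRPL51 to 1.68 for MRPS24, and the bars of most neighbours overlap.

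For 4 members there was no test. MRPS12, the counterpart of bacterial S12 at the decoding centre, and MRPL45, which sits at the exit of the peptide tunnel, held 0 counts in every library. MRPL23 held 7 counts and MRPS18B 33 counts over all 9 libraries together. All 4 have further entries in the tables for other placements of the same gene, as does MRPS36, and of these 10 entries only that of MRPL45 held counts (73 to 132 per library). Their low counts therefore do not show that the genes are silent, and how reads that fit several placements were counted was not tested. The low tested members were MRPS24 and MRPS36, with 484 and 505 counts over the 9 libraries.

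Replicate 1 of siNS stood apart from its group for these genes. It was below the mean of the other siNS libraries in 66 of 74 members, with a median log2 difference of -0.388. The libraries numbered 1 of siNFKB2 and siRELB were below the mean of their own group's others in 49 and 58 members, with medians of -0.135 and -0.174. Across the 74 members this difference went with GC content in siNS replicate 1 (Pearson -0.526, Spearman -0.598), as a description over genes that share a library. MRPL12, at 67.1, 140 and 148 CPM in siNS, is an example. In MRPS24, a gene of low counts at 1.26, 2.69 and 9.22 CPM in siNS, replicate 3 was the one apart. What sets these libraries apart was not tested.

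**Figure D2:**
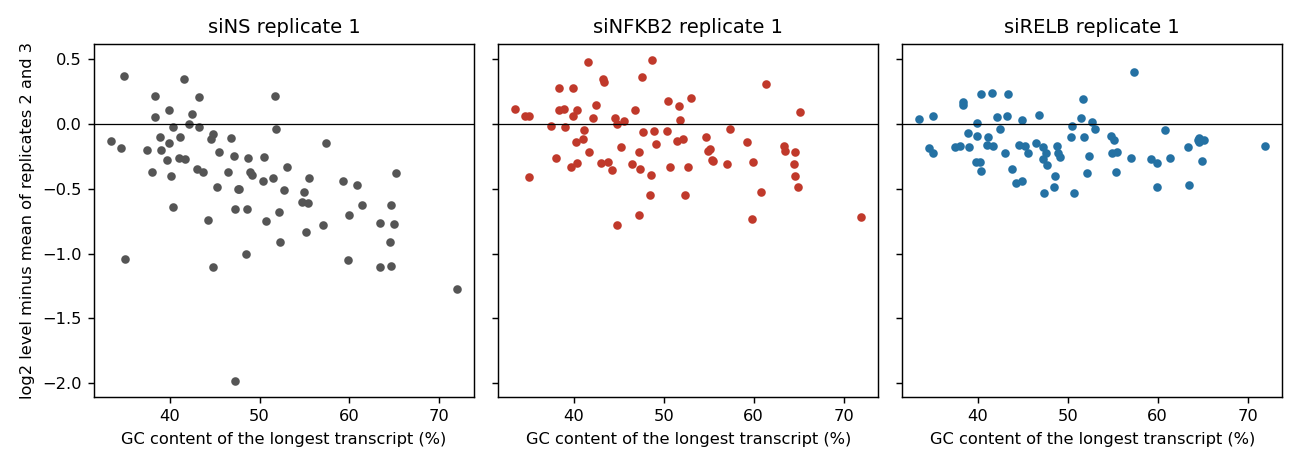
Difference of each replicate 1 library from the mean of replicates 2 and 3 of its own group (vertical axis, log2) against the GC content of the member's longest transcript in percent (horizontal axis), 1 point per tested member. In siNS 66 of 74 points lie below 0 and fall with GC (Pearson -0.526), with weaker correlations for siNFKB2 (-0.35) and siRELB (-0.199).

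After NFKB2 knockdown 11 members fell and 1 rose, and the remaining 62 were not called. Called means an adjusted p below 0.05 in edgeR's quasi-likelihood test, adjusted by Benjamini-Hochberg over all 14815 genes tested. Over all genes 13.5% were called lower and 12.6% higher in this comparison (26.1% in either direction), so the 11 members called lower (14.9% of 74) are near the background share and the single one called higher (1.35%) is below it. Of the large subunit 6 fell, MRPL4, MRPL11, MRPL12, MRPL30, MRPL37 and MRPL58, and MRPL50 rose. Of the small subunit 5 fell, MRPS2, MRPS6, MRPS7, MRPS15 and MRPS16. None of the small subunit genes was called higher by edgeR or by DESeq2, and 0 were higher at an unadjusted p below 0.05.

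Leaving out libraries changed the count lower more than the count higher. Without the 3 libraries numbered 1, an alternative chosen after the data were seen, 32 members were lower and 2 higher after NFKB2 knockdown, where 23.2% and 21.6% of all genes were, and all 11 called with every library were among the 32. Without siNS replicate 1 alone 29 were lower, where 16.4% of all genes were, with medians of -0.278 and -0.223 over the large and small subunit. Without siNS replicate 3 only 5 were lower, where 8.56% of all genes were. MRPL50 stayed called higher in each of these fits.

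MRPL50 was the only member called higher after either knockdown by edgeR on all libraries with no block or trend removed. It encodes a large subunit protein with no bacterial counterpart and lies on chromosome 9, from 101387633 to 101398614 on the minus strand (GRCh38, GENCODE 29), where its exons overlap no other gene. In siNS it measured 44.0, 34.1 and 34.0 CPM in replicates 1, 2 and 3. In siNFKB2 it measured 94.6, 95.0 and 86.6 CPM, and in siRELB 59.4, 60.6 and 53.3 CPM. The 3 groups did not overlap, with siNFKB2 highest and siRELB in between. Means were 37.3 ± 5.74, 92.1 ± 4.75 and 57.8 ± 3.89 CPM (SD, n = 3). The fitted change was 2.47-fold for siNFKB2 against siNS, or 1.30 on the log2 scale (SE 0.13, adjusted p = 0.000265). For siRELB against siNS it was 1.55-fold, or 0.63 on the log2 scale (SE 0.13, adjusted p = 0.040), a call lost without any 1 of 7 libraries. Between the knockdowns it was higher in siNFKB2 by 0.67 on the log2 scale (adjusted p = 0.00446). Both calls of siNFKB2 held under all 19 alternative settings.

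**Figure D3:**
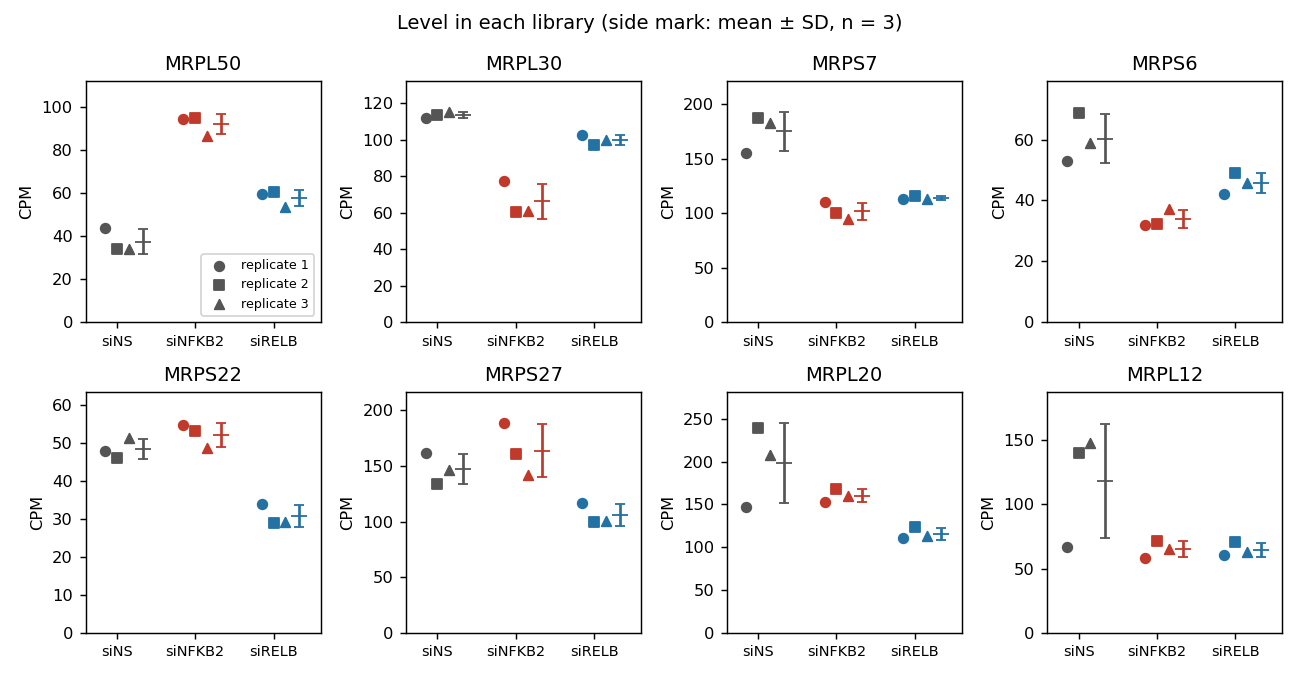
Level of 8 members in CPM (vertical axes, from 0) in each library, by group; circle, square and triangle are replicates 1, 2 and 3, and the mark at the side is the mean with SD (n = 3). MRPL50 is highest in siNFKB2, MRPS22 and MRPS27 lowest in siRELB, and the siNS libraries of MRPL12 spread from 67.1 to 148 CPM.

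MRPL30, the counterpart of bacterial L30, fell after NFKB2 knockdown. It lies on chromosome 2, from 99181079 to 99197626 on the plus strand, and is one of the genes with an NF-kB consensus in the window shown above. The siNS libraries were close together at 112, 113 and 115 CPM. The siNFKB2 libraries lay at 77.1, 60.6 and 60.9 CPM and the siRELB libraries at 103, 96.9 and 99.6 CPM. All 3 siNFKB2 libraries were below both other groups. The log2 fold change was -0.78 (SE 0.12, adjusted p = 0.00138) against siNS and -0.59 (SE 0.12, adjusted p = 0.00518) against siRELB. For siRELB against siNS it was -0.19, with an adjusted p of 0.456. Of its exonic length 19.5% overlaps other annotated genes on the same strand, where reads could be shared. The other holders of this consensus were not called in any comparison by edgeR on all libraries with no trend removed. MRPL14 had log2 fold changes of 0.22 and 0.00 after NFKB2 and RELB knockdown, and MRPL22 of -0.27 and -0.26. With the length and GC trend removed MRPL14 was called higher after NFKB2 knockdown, with or without the replicate block. MRPL22 was called lower after NFKB2 knockdown with the trend removed and the block together, and without siNS replicate 1. Without the 3 libraries numbered 1 MRPL22 was called lower after either knockdown.

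MRPS7 is the counterpart of bacterial S7 in the head of the small subunit. It was the only member called lower in both knockdowns by edgeR on all libraries with the filter on low counts and no block or trend removed. With no filter edgeR also called MRPL12 lower in both, and DESeq2 also called MRPL12, MRPL24 and MRPS16 lower in both. MRPS7 lies on chromosome 17, from 75261674 to 75266373 on the plus strand. It measured 155, 188 and 183 CPM in siNS, 110, 100 and 95.2 CPM in siNFKB2, and 113, 116 and 113 CPM in siRELB. Every knockdown library was below every siNS library. The log2 fold change against siNS was -0.78 (SE 0.11, adjusted p = 0.00104) for siNFKB2 and -0.62 (SE 0.11, adjusted p = 0.023) for siRELB. Those comparisons share the siNS libraries. Between the knockdowns the difference was -0.16, with an adjusted p of 0.316.

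MRPS6, MRPS2 and MRPS15, counterparts of bacterial S6, S2 and S15, fell after NFKB2 knockdown with log2 fold changes of -0.83, -0.92 and -0.84. MRPS6 went from 53.1, 68.8 and 59.0 CPM in siNS to 32, 32.3 and 37.3 CPM in siNFKB2 (adjusted p = 0.00186). MRPS2 went from 87.2, 135 and 134 CPM to 71.8, 55.7 and 60.2 CPM (adjusted p = 0.00495). MRPS15 went from 105, 164 and 134 CPM to 88.2, 65.2 and 72.3 CPM (adjusted p = 0.00664). The siNFKB2 libraries were below every siNS library in all 3 genes, and replicate 1 was the lowest siNS library in each. The siRELB libraries lay between for MRPS6, at 42.3, 49.1 and 45.7 CPM. Neither MRPS6, MRPS2 nor MRPS15 was called for siRELB against siNS, with adjusted p of 0.165, 0.349 and 0.369. Against siRELB, MRPS6 and MRPS2 were lower in siNFKB2 by -0.43 (adjusted p = 0.0366) and -0.56 (adjusted p = 0.042) on the log2 scale, and MRPS15 by -0.51 with an adjusted p of 0.0559, called lower with the replicate block and with DESeq2.

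Several large subunit genes that fell have defined places or jobs in the ribosome. MRPL11 and MRPL12 belong to the stalk that receives translation factors, and MRPL4 reaches into the peptide tunnel. MRPL58 is the peptidyl-tRNA hydrolase that can free stalled ribosomes, and MRPL37 has no bacterial counterpart. MRPL11 measured 91.4, 152 and 141 CPM in siNS and 70.6, 77.1 and 76.2 CPM in siNFKB2 (log2 fold change -0.78, adjusted p = 0.0123). MRPL4 measured 60.9, 104 and 104 CPM and 40.0, 59.9 and 52.7 CPM (log2 fold change -0.82, adjusted p = 0.022). In both genes siNS replicate 1 came closest to the knockdown. MRPL12 measured 67.1, 140 and 148 CPM in siNS and 58.6, 71.3 and 65.2 CPM in siNFKB2 (log2 fold change -0.86, adjusted p = 0.0271). Its siNS replicate 1 thus lay inside the siNFKB2 range, and 68.2% of its exonic length is shared with another annotated gene on the same strand. Its siRELB level was 60.4, 70.7 and 62.8 CPM, a log2 fold change of -0.87 that did not pass (adjusted p = 0.109).

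Exons overlap another annotated gene over more than 10% of their length in 26 members, among them MRPL4 (21.4%), MRPL20 (15.5%), MRPS16 (14.9%), MRPS2 (14.4%) and MRPS7 (10.8%). Reads there may belong to the other gene, since use of strand in counting is not given.

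Smaller drops were called for MRPL37, MRPL58 and MRPS16. MRPL37 measured 156, 198 and 195 CPM in siNS and 139, 133 and 109 CPM in siNFKB2 (log2 fold change -0.52, adjusted p = 0.0165). MRPL58 measured 33.5, 43.8 and 45.7 CPM and 27.7, 29.1 and 31.7 CPM (log2 fold change -0.48, adjusted p = 0.0289). MRPS16 measured 297, 320 and 319 CPM and 257, 243 and 234 CPM, the smallest called change (log2 fold change -0.35, adjusted p = 0.0197). In all 3 genes the siNFKB2 libraries lay below every siNS library. MRPS7, MRPS6, MRPS2, MRPS15 and MRPL30 stayed called under all 19 alternative settings. The other 6 of the 11 lost the call in at least 1 of them, each without siNS replicate 3 among others, at adjusted p of 0.0532 (MRPL11), 0.0639 (MRPL37), 0.08 (MRPS16), 0.092 (MRPL4), 0.115 (MRPL12) and 0.129 (MRPL58).

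The fitted changes over all tested members were small. Over the large subunit the median log2 fold change for siNFKB2 against siNS was -0.126, with 30 of 47 below 0, and over the small subunit -0.104, with 18 of 27 below 0. All 14815 genes had a median of -0.00373, with 50.3% below 0. In 60 of the 74 members the fitted change was under 0.5 in size on the log2 scale. The libraries of siNFKB2 and siNS were apart in 16 members that were lower and 2 that were higher, where 18.6% and 18.8% of all genes were apart. The higher ones were MRPL50 and MRPL10, a stalk protein at 58.4, 63.7 and 56.8 CPM in siNS and 71.6, 72.0 and 68.6 CPM in siNFKB2 (log2 fold change 0.25, adjusted p = 0.106). Some alternatives also called MRPL10, MRPL14, MRPL15 or MRPL54 higher after NFKB2 knockdown, among them DESeq2 for MRPL10.

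**Figure D4:**
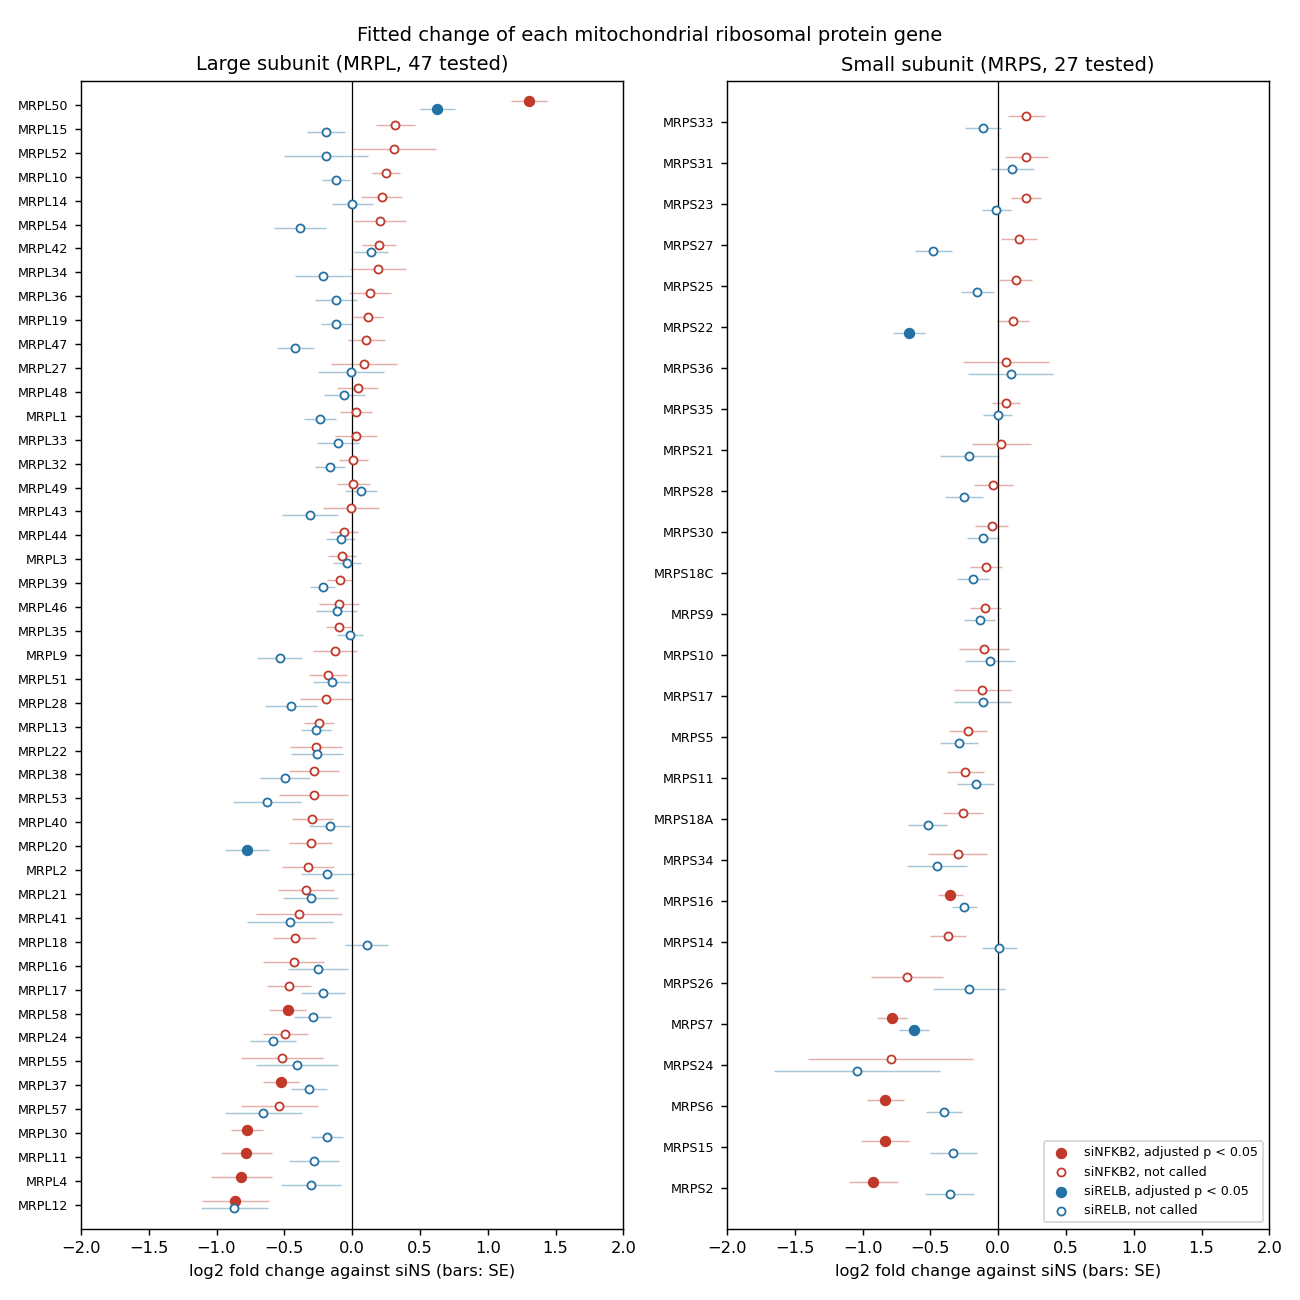
Fitted log2 fold change against siNS (horizontal axis, bars are 1 SE) of each tested member for siNFKB2 (red) and siRELB (blue), ordered by the siNFKB2 value; filled points passed an adjusted p of 0.05. MRPL50 stands apart on the right in both, 11 siNFKB2 points on the left are filled, and 66 of the 74 siRELB points lie below 0 with 3 of them filled.

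The siNFKB2 values were also set apart by whether the protein has a bacterial counterpart, a split by the standard naming of ribosomal proteins that was chosen after results of these data were known and has no test. In the small subunit, the 16 tested members with a counterpart had a median of -0.253, 15 of them were below 0, and all 5 calls were among them. The 11 without one had a median of 0.108, and 3 were below 0. None was called in either direction by DESeq2, or by edgeR on all libraries with the filter and no block or trend removed. At an unadjusted p below 0.05 in that edgeR test, 1 was lower and 0 were higher. MRPS26, of this class, was called lower by edgeR with no filter, with the replicate block and with the length and GC trend removed. Without siNS replicate 1, and without the 3 libraries numbered 1, both MRPS26 and MRPS34 were called lower. In the large subunit, the medians were -0.191 for 29 members with a counterpart and -0.0941 for 18 without, with 4 and 2 called lower. Median GC content of the longest transcript was 47.3% and 41.7% in the small subunit classes and 50.7% and 50.2% in the large subunit classes; its part in the split was not tested. For siRELB the small subunit medians were -0.251 and -0.113, and the large subunit medians -0.215 and -0.206.

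After RELB knockdown most members had a fitted change slightly below 0, and few passed the test. MRPL20, MRPS7 and MRPS22 fell and MRPL50 rose. The 3 called lower are 4.05% of 74, where 0.81% of all genes were called lower, and the 1 called higher is 1.35%, where 1.21% of all genes were (2.02% in either direction). The fitted change was below 0 in 42 of 47 large and 24 of 27 small subunit members, with medians of -0.215 and -0.212, and over all genes in 52% with a median of -0.016. Libraries of siRELB and siNS were apart in 16 members that were lower and 1 that was higher, where 10.2% and 12.3% of all genes were apart. No small subunit gene was called higher by edgeR or DESeq2, or was higher at an unadjusted p below 0.05. The siRELB comparison shares its controls with that of siNFKB2. Over the 74 members the fitted change went with GC content in both, at a Pearson correlation of -0.437 for siRELB and -0.403 for siNFKB2. Over all tested genes with a GC value it was -0.216 and -0.158. What lies behind this relation was not tested.

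Without the 3 libraries numbered 1, 31 members were lower and 1 higher after RELB knockdown, where 11.7% and 11% of all genes were, and the 3 called with every library were among the 31. Without siNS replicate 1 alone 20 were lower, where 5.81% of all genes were, with medians of -0.36 and -0.30 over the large and small subunit. Without siNS replicate 3 edgeR called no member, where 0.0857% of all genes were lower, and 10 members were lower at an unadjusted p below 0.05. It also called none lower without siNS replicate 2, siRELB replicate 2 or siRELB replicate 3, where 0.218%, 0.046% and 0.0921% of all genes were lower, and 12, 15 and 10 members were lower at an unadjusted p below 0.05. It called 1 lower without siRELB replicate 1 or siNFKB2 replicate 2, while DESeq2 on all libraries called 9 lower.

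MRPL20 and MRPS22 were called lower in siRELB and not in siNFKB2, and the direct comparison of the knockdowns was called for MRPS22. MRPS22, a small subunit protein of the mitochondrial lineage on chromosome 3, from 139005806 to 139357223 on the plus strand, measured 47.7, 46.0 and 51.2 CPM in siNS. It measured 54.6, 53.0 and 48.5 CPM in siNFKB2 and 33.9, 28.9 and 29.1 CPM in siRELB. All siRELB libraries were below all others. The log2 fold change for siRELB against siNS was -0.66 (SE 0.12, adjusted p = 0.023), and siNFKB2 was higher than siRELB by 0.77 (SE 0.12, adjusted p = 0.00141). For siNFKB2 against siNS it was 0.11, with an adjusted p of 0.543.

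MRPL20, the counterpart of bacterial L20 on chromosome 1, from 1401908 to 1407313 on the minus strand, measured 147, 239 and 208 CPM in siNS. It measured 153, 168 and 160 CPM in siNFKB2 and 111, 123 and 113 CPM in siRELB. The siRELB libraries were again the lowest, and the siNS libraries spread widely. The log2 fold change was -0.77 (SE 0.16, adjusted p = 0.0397) for siRELB and -0.31 (adjusted p = 0.186) for siNFKB2 against siNS. Between the knockdowns it was 0.47, just outside the threshold at an adjusted p of 0.0539, and it was called with the replicate block and with DESeq2. Each of the 4 siRELB calls was lost in at least 5 of the 19 alternative settings, among them without siNS replicate 3 and without siRELB replicate 2 or 3. At most the adjusted p then reached 0.24 for MRPL50, 0.188 for MRPL20, 0.159 for MRPS22 and 0.143 for MRPS7.

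Set directly against each other, the knockdowns differed in 11 members. Higher in siNFKB2 than in siRELB were MRPL10, MRPL15, MRPL47, MRPL50, MRPL54, MRPS22 and MRPS27, and lower were MRPL18, MRPL30, MRPS2 and MRPS6. The 7 higher are 9.46% and the 4 lower 5.41% of the members, below the 12.2% and 14.3% of all genes (26.6% in either direction). Libraries of the knockdowns were apart in 16 members higher and 13 lower in siNFKB2, where 22.3% and 23.6% of all genes were apart. The replicate number was also used as a block, although whether it pairs these libraries is not settled. Without the block 5 were higher and 2 lower in the large and 2 and 2 in the small subunit. With it the counts became 9 higher and 4 lower in the large and 4 and 4 in the small subunit. In all 13 members were then higher and 8 lower, where 20% and 20.9% of all genes were. Without the block the medians were 0.0924 and 0.0637, against 0.0217 over all genes, and ranged from 0.0229 to 0.155 and from 0.00594 to 0.0982 with 1 library left out. Without the 3 libraries numbered 1 the counts were 17 higher and 10 lower, where 21.8% and 22.4% of all genes were.

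MRPS27, a small subunit protein with pentatricopeptide repeats, measured 189, 161 and 142 CPM in siNFKB2 and 117, 99.4 and 101 CPM in siRELB, and 161, 134 and 147 CPM in siNS. The siRELB libraries were below all others, and the log2 difference between the knockdowns was 0.63 (SE 0.13, adjusted p = 0.0074). Against siNS the siRELB change of -0.48 did not pass (adjusted p = 0.109). MRPL47, the counterpart of bacterial L29, measured 130, 160 and 151 CPM in siNFKB2 and 93.9, 110 and 102 CPM in siRELB, a difference of 0.52 (SE 0.14, adjusted p = 0.0177). Its siNS libraries, at 114, 149 and 146 CPM, overlapped those of siNFKB2. MRPL15 differed by 0.51 (adjusted p = 0.0243), from 173, 232 and 198 CPM to 132, 149 and 143 CPM. MRPL10 differed by 0.36 (adjusted p = 0.0257), MRPL54 by 0.59 (adjusted p = 0.0432) and MRPL18 by -0.53 (adjusted p = 0.032). The differences of MRPS22, MRPS27, MRPL30 and MRPL50 held under all 19 alternative settings, and those of MRPL10, MRPL15, MRPL18, MRPL47, MRPL54, MRPS2 and MRPS6 were lost in at least 1.

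The subunit sums give the total level of the members. Large subunit members summed to 4556 ± 690 CPM in siNS, 4109 ± 212 in siNFKB2 and 3898 ± 250 in siRELB (SD, n = 3). Small subunit members summed to 2393 ± 258, 2069 ± 44.8 and 2004 ± 96.9 CPM. Both knockdowns thus averaged 83.7% to 90.2% of the siNS sums, but the siNS libraries spread from 3789 to 5126 CPM for the large subunit and overlapped both other groups. For the small subunit siNS, from 2094 to 2543 CPM, overlapped siNFKB2, from 2020 to 2109 CPM, while every siRELB library, from 1898 to 2089 CPM, lay below every siNS library. The ratio of the large to the small subunit sum was 1.9 ± 0.107 in siNS, 1.99 ± 0.0914 in siNFKB2 and 1.94 ± 0.0375 in siRELB, differences no larger than the spread between libraries.

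**Figure D5:**
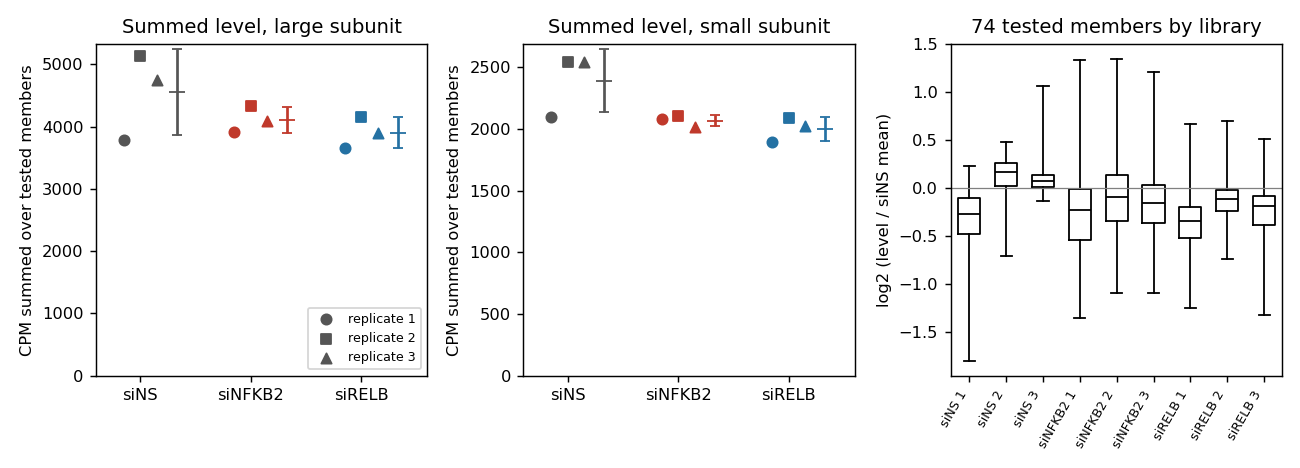
Left and middle, summed level of the tested members in CPM (from 0) by library for each subunit, with the mean and SD (n = 3) at the side; right, log2 of each member's level over its siNS mean in each library, where the box spans the quartiles, the line is the median and the whiskers reach the lowest and highest of 74 members. siNS replicate 1, at 3789 and 2094 CPM, sits with the knockdown libraries rather than with siNS replicates 2 and 3.

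Symbols do not always match the place found in structures. MRPS30 and MRPS18A are found in the large subunit, and MRPS36 is now counted as a part of the oxoglutarate dehydrogenase complex. MRPS30 averaged 95.8, 92.6 and 88.6 CPM in siNS, siNFKB2 and siRELB, MRPS18A 28.4, 23.7 and 19.8 CPM, and MRPS36 3.07, 3.18 and 3.26 CPM. None was called in any comparison by edgeR on all libraries without a block. MRPS18A was called lower for siRELB against siNS by DESeq2, with the replicate block, without siNS replicate 1 and without the 3 libraries numbered 1. In the last of these it was also called higher in siNFKB2 than in siRELB. Moving them left the calls unchanged for siNFKB2 against siNS, at 1 higher and 6 lower of 49 and 0 higher and 5 lower of 24. MRPS18C, of the same family as MRPS18A, averaged 32.3, 30.3 and 28.4 CPM and was not called by edgeR on all libraries either.

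The ribosome's partners outside the symbol rule were taken from lists of known function. Among 5 mitoribosomal proteins with other symbols, DAP3, a GTP-binding small subunit protein, rose after NFKB2 knockdown (151 to 197 CPM, log2 fold change 0.38, adjusted p = 0.0367) and CHCHD1 fell (78.0 to 51.0 CPM, -0.61, adjusted p = 0.0388). Each is 20% of that list, where 12.6% of all genes rose and 13.5% fell. Of 26 tested assembly factors 4 fell (15.4%) and 2 rose (7.69%), where 13.5% of all genes fell and 12.6% rose. RBFA, which binds the small subunit during assembly, fell from 44.3 to 28.8 CPM (-0.62, adjusted p = 0.00537), RPUSD3, a pseudouridine synthase family member, fell from 33.7 to 21.5 CPM (-0.65, adjusted p = 0.0169), and RCC1L rose from 80.2 to 112 CPM (0.48, adjusted p = 0.0207). The median over these 26 was 0.00994.

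After RELB knockdown the called partners were both translation factors. GFM2, which with a recycling factor splits the ribosome after termination, measured 92.3, 77.1 and 82.1 CPM in siNS and 39.5, 33.8 and 34.7 CPM in siRELB. All siRELB libraries were below all siNS libraries, and GFM2 fell by 1.22 on the log2 scale (SE 0.12, adjusted p = 0.0024). In siNFKB2 it measured 98.4, 96.5 and 83.7 CPM, higher than siRELB by 1.37 (adjusted p = 0.000174). GFM1, the elongation factor that moves the ribosome along the mRNA, averaged 73.4 CPM in siNS and 37.6 CPM in siRELB (adjusted p = 0.034). These were 2 of 17 factors (11.8%), where 0.81% of all genes were called lower. Of the members of the other 5 partner lists 0 were called by edgeR for siRELB against siNS. There 3 assembly factors, but no gene of the remaining 4 lists, were lower at an unadjusted p below 0.05, and DESeq2 called 1 assembly factor lower. After NFKB2 knockdown SLIRP, which stabilises mitochondrial mRNAs, fell from 93.6 to 43.2 CPM (-1.11, adjusted p = 0.00625) and TUFM, the factor that brings aminoacyl-tRNA, from 318 to 225 CPM (-0.50, adjusted p = 0.0214). They are 11.8% of the 17 factors, where 13.5% of all genes fell, and 0 of the 17 rose, where 12.6% did.

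Of 18 tested mitochondrial aminoacyl-tRNA synthetases and related enzymes 3 rose (16.7%) and 2 fell (11.1%) after NFKB2 knockdown, where 12.6% and 13.5% of all genes did. QRSL1, a subunit of the enzyme that makes glutaminyl-tRNA, rose from 22.4 to 32.9 CPM (0.56, adjusted p = 0.0149), YARS2 rose from 42.4 to 63.9 CPM (0.59, adjusted p = 0.024), and AARS2 fell from 33.8 to 24.0 CPM (-0.50, adjusted p = 0.0331). Of 10 genes for mitochondrial transcription and mtDNA upkeep only TFB2M, a transcription factor of mitochondria, was called (10%, where 12.6% of all genes rose and 13.5% fell). It rose from 31.7 to 46.1 CPM (0.54, adjusted p = 0.0167). This list had the highest median, 0.241. Among 9 biogenesis regulators MYC rose from 200 to 361 CPM (0.85, adjusted p = 0.00152) and NRF1 fell from 23.8 to 17.9 CPM (-0.41, adjusted p = 0.0435). Each is 11.1% of that list, where 12.6% of all genes rose and 13.5% fell. MYC was at 180 CPM in siRELB. Against siNS, the calls of RBFA, SLIRP and MYC in siNFKB2 and of GFM2 in siRELB held under all 19 alternative settings, and those of the other partners named were lost in at least 1.

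The motifs of these regulators in the members can be set beside the calls as a description. All 11 members called lower after NFKB2 knockdown have a promoter entry, and 2 of them hold any of the 5 motifs, MRPL30 (NF-kB and NRF1) and MRPL37 (E-box). None of them holds the ETS motif. Of the 3 called lower after RELB knockdown, MRPL20 and MRPS22 hold it. MRPL50, called higher in both, holds the YY1 motif.

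The mitochondrial rRNAs that these proteins bind, listed as RNR1 and RNR2, were not called in either comparison with siNS. RNR2, the large subunit rRNA, measured 3265, 10936 and 5150 CPM in siNS, 4377, 8855 and 22636 CPM in siNFKB2 and 2990, 5032 and 6639 CPM in siRELB. RNR1, the small subunit rRNA, ranged from 749 to 4012 CPM. Both spread several-fold within a group. Libraries were oligo-dT selected, so these values also depend on how much rRNA passed the selection. The adjusted p against siNS was 0.289 and 0.778 for RNR2 and 0.588 and 0.821 for RNR1 in siNFKB2 and siRELB.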

How the data were processed

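The authors deposited 1 table per library of whole-number counts per gene, with no normalization. The submitters' processing notes name Trimmomatic 0.38, STAR 2.7.1a, Subread 1.6.4 and the build GRCh38.p13, while annotation and strand setting for counting were not given in the sources used here. Counts were tested with edgeR 4.0.16 (R 4.3.3): filterByExpr, TMM scaling, quasi-likelihood F test on all 9 libraries with 3 group means, and Benjamini-Hochberg adjustment over 14815 genes. CPM values use the TMM library sizes, and the SE is the log2 fold change over the square root of F. The script was tested on simulated counts with known changes. DESeq2 1.42.0, other filters and scalings, single libraries left out, the replicate block and a removed length and GC trend (92.2% of tested genes have both) were alternatives. Positions, exon lengths and GC come from GENCODE 29, promoters from RefSeq GRCh38.p14.

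Members and gene lists were chosen with earlier results of these data known. Genes are named by rule: called members with the smallest adjusted p, up to 8 per subunit and direction against siNS and 4 between knockdowns, the 3 highest and 3 lowest per kb in siNS, untested members, members placed elsewhere by structure, and up to 3 called partners per list. MRPL14, MRPL22, MRPL54 and MRPL18 were named outside it, after their values were seen. No 2 libraries of a group agreed within sampling noise. Deviations of same-numbered libraries of siNFKB2 and siRELB from their group means correlated over all tested genes at 0.535, 0.171 and 0.45. Across numbers, siNFKB2 replicate 3 with siRELB replicate 2 reached 0.258. Neither the labels nor these values settle whether a number marks a pair, so the replicate block was only an alternative.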

Additional observations from a re-analysis of the deposited data

How the results depend on the processing

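No result changed direction, and 10 of the 25 calls of members named by the rule held under all 19 alternatives. Counts are given as large subunit higher and lower, then small subunit. For siNFKB2 against siNS, DESeq2 gave 2 large subunit members higher and the removed length and GC trend 3, with a small subunit median of -0.201. Without the 3 libraries numbered 1 (chosen after seeing the data) there were 2 and 22 large and 10 lower small subunit members, with 6711 genes called in all, against 3869. For siRELB against siNS, where 299 genes were called, using only the 6 libraries compared gave 0 and 0, then 1 lower, with 129 genes called. DESeq2 gave 4 and 5 lower (879 genes), no filter 2 lower large subunit members, the removed trend 3 (715 genes), and leaving out the libraries numbered 1 gave 20 and 11 lower (3390 genes). For siNFKB2 against siRELB the 6 libraries alone gave 8 and 4 in the large subunit, DESeq2 4 lower in the small, the removed trend 4 lower in each, and leaving out the libraries numbered 1 gave 12 and 5, then 5 and 5 (6600 genes). Leaving out 1 library at a time, siNFKB2 against siNS ranged from 1 to 20 and 4 to 9 lower, medians from -0.278 to -0.0734 and -0.223 to -0.0331, and 2220 to 4895 genes. siRELB against siNS ranged from 0 to 1 higher, 0 to 14 and 0 to 6 lower, a large subunit median from -0.36 to -0.148, and 15 to 1819 genes. siNFKB2 against siRELB ranged from 1 to 8 higher and 1 to 4 lower in the large subunit, 0 to 5 lower in the small, and 2188 to 4917 genes.

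With the replicate block, siNFKB2 against siNS gave 2 higher and 13 lower large subunit members and 5944 genes called, siRELB against siNS 8 and 5 lower and 1570 genes, and siNFKB2 against siRELB 9 and 4, then 4 and 4, and 6054 genes. With the block and the length and GC trend removed together, the first gave 5 and 14, a small subunit median of -0.187 and 6437 genes, the second 9 and 5 lower and 2107 genes, and the third 12 and 5, then 5 and 5, and 6794 genes. Same-numbered libraries correlated with siNS at 0.585, 0.0545 and 0.0914 for siNFKB2 and 0.594, 0.376 and 0.0439 for siRELB. With siNFKB2 replicate 3, siNS replicate 2 correlated better (0.569). Whether a number marks a pair is therefore not settled in these comparisons either. The cause of these changes was not tested, and some alternatives also hold fewer samples or genes. Low counts limit the precision for MRPS24 and MRPS36.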
